A study of Mus musculus with 60 samples.

Results

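The genes described here are the 77 rows of the deposited gene tables whose symbol begins with Mrpl or Mrps and a digit, out of 21999 rows. By their names they encode proteins of the mitochondrial ribosome, 48 of the large subunit (Mrpl) and 29 of the small subunit (Mrps). Counts, medians and correlations by subunit follow these names throughout, although a name need not match the subunit, as for Mrps18a below. The rule used the symbols only and no measured value, but it was set with earlier results of these data known.

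Poly(A) RNA from 3 brain regions of 20 mice, the prefrontal cortex, the striatum and the hippocampus, was sequenced in 60 libraries. The mice were wild type (WT) or knockout (KO) for Glo1, the gene of glyoxalase 1, an enzyme that removes methylglyoxal. From week 8 to week 12 of age they ate pellets with 1.4 mg of vitamin B6 (VB6) per 100 g, the normal diet, or pellets with only 5 µg per 100 g, the lacking diet. Crossing genotype, diet and region made 12 groups of 5 libraries. These were WT mice on the normal diet, WT mice on the lacking diet, KO mice on the normal diet and KO mice on the lacking diet, each in the 3 regions of the same animals. Strain and sex were not given in the sources used here. The labels give batch 1 for each of the 30 KO libraries and batch 2 for each of the 30 WT libraries: genotype and batch cannot be told apart.

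Mitochondria keep a small genome of their own, and its messenger RNAs are translated by a ribosome of their own. Its ribosomal RNAs come from the mitochondrial genome, whereas the proteins, those of the small (28S) and of the large (39S) subunit, are encoded in the nucleus, made in the cytosol and imported. In neurons the products of this ribosome, core subunits of the respiratory chain and of ATP synthase, serve the high energy demand of synaptic signalling. The small subunit decodes the messenger RNA, and the large subunit joins the amino acids and releases the peptide through an exit tunnel at the inner membrane.

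Library totals lay between 7640047 and 13928265 counts, and the RNA integrity number (RIN) between 7.6 and 9.3. Glo1 had at most 10 counts in any KO library and between 299 and 734 counts in the WT libraries. The 13 protein genes of the mitochondrial genome had 0 counts in the deposited table, so that the messages this ribosome translates were not measured. The labelled regions held their own markers. The summed RPKM (counts scaled to gene length and library total) of the cortex markers was 145 to 169 in the prefrontal cortex and at most 65.6 elsewhere. For the striatum markers it was 1437 to 1786 in the striatum and at most 40.9 elsewhere, and for the hippocampus markers 57.2 to 80.7 in the hippocampus and at most 5.85 elsewhere.

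The members lay on 17 chromosomes, and their promoters were compared for shared letters. RefSeq promoter sequences (build GRCm38.p6) were found for 68 of the 77 members, and the 250 bases before each start were searched on both strands. The letters GCGC and TGCGC with any base between them, which nuclear respiratory factor 1 (NRF1) binds, were present in 10 of the 68 (14.7%) and in 8.77% of 10677 genes that passed the count filter and had a promoter. The letters CCGGAAG of the ETS family, to which GABP (NRF2) belongs, were present in 17 (25%) against 14.3%, and the YY1 letters AAGATGGC in 4 (5.88%) against 2.22%. For the SP-factor letters GGGCGG the shares were 48.5% and 63.2%, for CCAAT 36.8% and 40.4%, and for TATAAA 7.35% and 7.93%. A match is a description of the letters and not evidence of binding. Below are the 100 bases before the start of 3 members whose levels differed between regions, each 5′ to 3′ on the strand of its gene. Mrps21 (chr3:95871515-95871614, minus strand) is shown for its NRF1 letters in capitals, which begin 91 bases before the start. Mrps22 (chr9:98601680-98601779, minus strand) is shown for its ETS letters in capitals, which begin 11 bases before the start. Mrpl41 (chr2:24975099-24975198, minus strand) had none of the NRF1, ETS or YY1 letters. The last line is the interval of 41 bases between the RefSeq starts of Mrpl46 and Mrps11, a large and a small subunit gene on opposite strands (chr7:78783090-78783130, given on the plus strand). In GENCODE M21, whose transcripts of these genes reach further, no bases lie between them, and 12.2% of the exon bases of Mrpl46 and 7.97% of those of Mrps11 overlap the other gene.
Mrps21: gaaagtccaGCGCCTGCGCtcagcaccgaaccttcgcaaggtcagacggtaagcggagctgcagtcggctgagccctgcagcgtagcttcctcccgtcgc
Mrps22: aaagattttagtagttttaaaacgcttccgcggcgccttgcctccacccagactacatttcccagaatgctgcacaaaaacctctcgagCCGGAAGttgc
Mrpl41: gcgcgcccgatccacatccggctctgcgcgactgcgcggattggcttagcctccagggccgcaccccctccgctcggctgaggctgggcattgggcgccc
Mrpl46-Mrps11: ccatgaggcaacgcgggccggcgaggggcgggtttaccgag

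The members were mostly expressed at a modest level. Together they took 0.142 to 0.171% of the counts of a library. The median member had a mean of 6.78 RPKM over the 60 libraries, with quartiles of 4.68 and 11.4, and 49 of the 77 lay between 5 and 20 RPKM. By name, the median was 7.36 RPKM for the large subunit (Mrpl) and 5.90 RPKM for the small subunit (Mrps). For comparison, the median of all 13930 genes tested was 5.02 RPKM, and that of 82 proteins of the cytosolic ribosome was 33.3 RPKM with quartiles of 13.3 and 55.8, so that the middle ranges of the ribosomes' levels did not overlap.

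The highest levels belonged to the large subunit genes Mrpl42 (55.0 RPKM), Mrpl50 (38.1), Mrpl41 (28.1) and Mrpl32 (26.1), the last known for being processed by the m-AAA protease before it enters the ribosome. The small subunit was led by Mrps15 with 21.9 RPKM, and no other member passed 20 RPKM. The lowest levels belonged to Mrpl13 (2.22 RPKM), Mrps36 (1.39), Mrpl23 (0.184) and Mrpl53 (0.0282). The protein of Mrps36 is also known as a part of the 2-oxoglutarate dehydrogenase complex. Mrpl53 had 15 counts in all 60 libraries together, and 88.0% of its exon bases are overlapped on the same strand by Gm42688, whose reads cannot be told apart from its own. Mrpl23, whose protein lines the exit tunnel, had a mean of 9.75 counts per library. Mrpl53 passed no count filter and Mrpl23 passed all but the cortical one, so that 75 members were tested there and 76 in each other fit.

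The order of levels depends on the gene length behind the RPKM. The length implied by the deposited values equalled the exon bases of GENCODE M21 for 61 of the 77 members. It was shorter for others, with 666 bases against 3682 for Mrpl42 and 768 against 4982 for Mrpl32. With the median length of the protein-coding transcripts in its place, an alternative chosen after seeing the data, Mrpl32 moved from rank 4 to rank 67, and 5 of the top 10 members were shared. The Spearman correlation of the orders across the 77 members was 0.474; both orders share the same counts. Comparisons of a member between libraries do not involve its length.

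**Figure D1:**
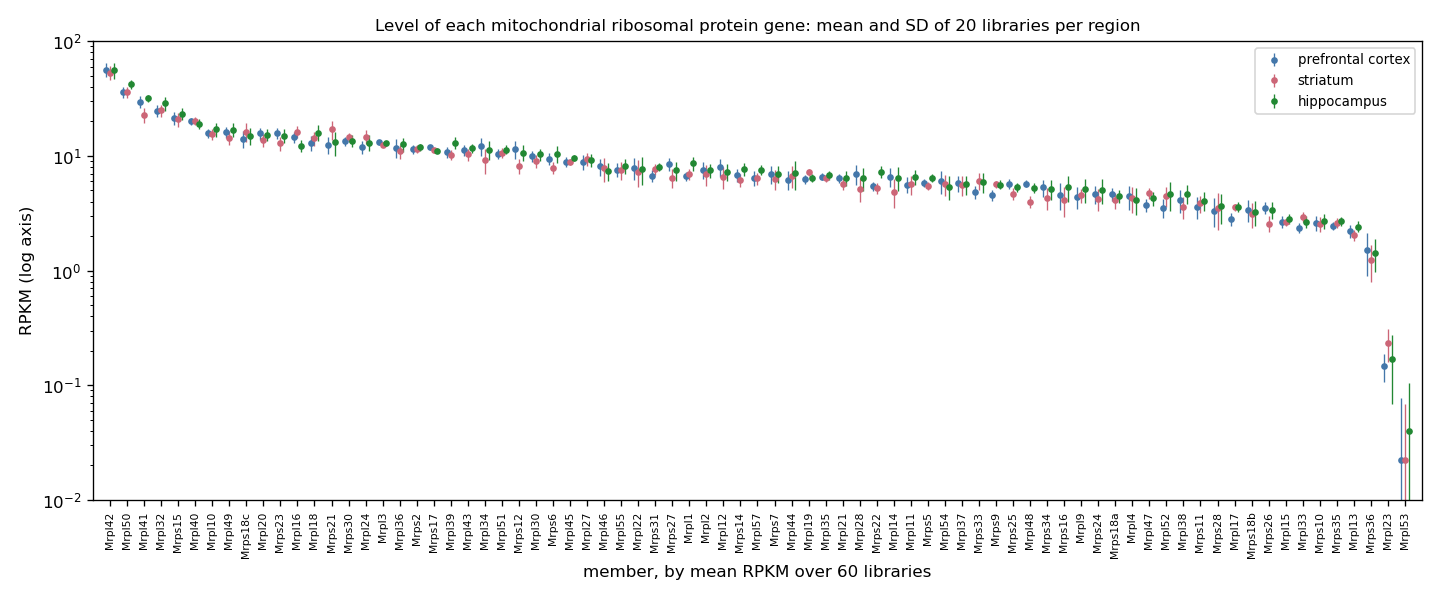
Mean RPKM (log axis) of each of the 77 members in the prefrontal cortex, striatum and hippocampus, with bars of 1 SD over 20 libraries, ordered by the mean over 60 libraries. The points of the 3 regions nearly coincide for most members, from 55.0 RPKM for Mrpl42 down to 0.0282 RPKM for Mrpl53.

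The members varied little between regions. The ratio of the highest to the lowest regional mean had a median of 1.17, and it was under 1.2 for 45 of 76 members (59.2%), against 29.0% of all genes, whose median was 1.35. The maximum was 1.60 for Mrpl23, which had few counts, and the next among the members tested was 1.44 for Mrpl48. The region with the highest mean depended on the scaling. On RPKM, which follow library totals, it was the hippocampus for 39 members, the prefrontal cortex for 24 and the striatum for 13. On CPM with TMM factors, the scaling of the tests and an alternative added after seeing the data, it was the hippocampus for 26, the prefrontal cortex for 29 and the striatum for 21, and the ratio was under 1.2 for 49 members (64.5%; all genes 29.8%). The median member had 6.73 RPKM in the prefrontal cortex, 6.45 RPKM in the striatum and 7.28 RPKM in the hippocampus. Within a group of 5 libraries the relative SD had a median of 13.6% and ran from 5.74% for Mrpl3 to 40.9% for Mrpl23.

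Differences between regions were tested with edgeR on all 60 libraries, averaged over genotype and diet, with p-values adjusted by Benjamini-Hochberg over all genes and a threshold of 0.05. In the striatum against the prefrontal cortex, 33 of 76 members passed (43.4%; all genes 69.9%), 15 higher and 18 lower in the striatum (all genes 35.9% and 34.0%). In the hippocampus against the prefrontal cortex, 25 passed (32.9%; all genes 59.3%), 14 higher and 11 lower (all genes 30.2% and 29.1%). In the striatum against the hippocampus, 33 passed (43.4%; all genes 66.4%), 11 higher and 22 lower in the striatum (all genes 33.6% and 32.9%). In each of these comparisons the share of members that passed was below that of all genes, and differences ran in both directions and in both subunits. By name, 8 of the 47 Mrpl members tested were higher and 9 lower in the striatum than in the prefrontal cortex. Of the 29 Mrps members 7 were higher and 9 lower, with Mrps18a among the lower. The median absolute log2 fold change of the members was 0.12, 0.11 and 0.12 in these comparisons, against 0.30, 0.21 and 0.26 for all genes. A difference over 0.5 on the log2 scale was found in 2.63% of the members between striatum and prefrontal cortex, 0% between hippocampus and prefrontal cortex and 1.32% between striatum and hippocampus, against 32.6%, 22.4% and 29.8% of all genes. Mrpl23, which failed the cortical count filter and entered this fit on few counts, is included in these values. It is counted among the members higher in the striatum in both comparisons, and between striatum and hippocampus it was the only member over 0.5. In bulk tissue, fewer cells of a type and less RNA per cell cannot be told apart.

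The direction of the split depended on how libraries were scaled. With library totals in place of TMM factors, which moved the median of all genes by 0.066 and -0.077 on the log2 scale in the comparisons with the hippocampus, 23 members were higher and 4 lower in the hippocampus than in the prefrontal cortex, and 7 were higher and 38 lower in the striatum than in the hippocampus. Without mouse 226, a WT mouse on the lacking diet, 7 members in place of 11 were lower in the hippocampus than in the prefrontal cortex. No shares of all genes are given for this scaling or without this mouse, so these counts are not read as a trait of the members. Cell types also differed between regions. The summed RPKM of 4 neuronal markers was 1304 to 1633 in the prefrontal cortex, 650 to 886 in the striatum and 923 to 1113 in the hippocampus, and that of 5 oligodendrocyte markers 246 to 491, 791 to 1060 and 573 to 991. Astrocyte markers summed to 253 to 393, 220 to 289 and 367 to 486, and choroid plexus markers to 0.254 to 2.18, 3.99 to 9.88 and 5.37 to 1229. No marker of these lists was at 0 in a whole region, and their part in the differences between regions was not tested.

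Taking the 3 comparisons as a pattern, 50 of 76 members passed in at least 1 of them (65.8%; all genes 84.9%) and 26 in none. Each member that differed from both other regions was counted under 1 pattern. For the striatum 12 were lowest and 9 highest, the latter including Mrpl23 with its few counts, and for the hippocampus 2 lowest and 6 highest. For the prefrontal cortex 5 were lowest and 2 highest. Some fit another pattern as well. Mrpl48, Mrps12 and Mrps25 (lowest in the striatum) and Mrps17 (lowest in the hippocampus) were also highest in the prefrontal cortex. Mrpl16 (highest in the striatum) was also lowest in the hippocampus. No shares of all genes are given for single patterns, so these counts are not read as a trait of the members. Mrpl16, Mrpl48, Mrps12, Mrps17 and Mrps25 passed in all 3 comparisons, although Mrps12 in the hippocampus against the prefrontal cortex (adjusted p 0.0488) and Mrps17 in the striatum against the prefrontal cortex (adjusted p 0.0500) were just under the threshold of the edgeR test. For Mrps25, 69.8% of the exon bases are overlapped on the opposite strand by Nr2c2, and reads of this pair cannot be told apart, since no strand setting is given in the sources used here. Since every mouse gave all 3 regions, the direction could also be counted per mouse. Called members had their direction in 11 to 20 of 20 mice between striatum and prefrontal cortex (median 17), in 13 to 19 between hippocampus and prefrontal cortex (median 16) and in 13 to 20 between striatum and hippocampus (median 17).

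The 12 members lowest in the striatum came from both subunits. Mrpl48 (ENSMUSG00000030706, 7:100545751-100608301), a protein of the central protuberance, had 4.94, 5.68 and 6.51 RPKM (lowest, median and highest of 20 libraries) in the prefrontal cortex, 3.05, 4.09 and 4.88 RPKM in the striatum and 4.21, 5.26 and 6.30 RPKM in the hippocampus. Every striatal library lay below every cortical library, on RPKM and on CPM with TMM factors, and the striatum was lower in 20 of 20 mice than the prefrontal cortex and in 19 than the hippocampus. Its log2 fold change against the prefrontal cortex was -0.50 (SE 0.041, edgeR, adjusted p 6.84e-17), a 1.42-fold lower level, and against the hippocampus -0.32 (adjusted p 6.79e-10). The hippocampus was itself lower than the prefrontal cortex, at -0.18 (adjusted p 8.02e-05) and in 18 of 20 mice.

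Mrpl41 (ENSMUSG00000036850, 2:24974117-24975098), the third most abundant member, had 23.2, 29.7 and 35.9 RPKM in the prefrontal cortex, 16.4, 22.9 and 30.5 RPKM in the striatum and 26.8, 31.4 and 35.4 RPKM in the hippocampus. The ranges overlapped, but within a mouse the striatum was below the hippocampus in 20 of 20 and below the prefrontal cortex in 18. The log2 fold change was -0.39 against the hippocampus (SE 0.053, edgeR, adjusted p 1.70e-09) and -0.36 against the prefrontal cortex (adjusted p 2.23e-08), while hippocampus and prefrontal cortex differed by 0.04 (95% interval -0.07 to 0.14).

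Mrps12, a protein of the decoding centre and the counterpart of the bacterial protein in which streptomycin resistance arises, had 7.40, 12.0 and 14.6 RPKM in the prefrontal cortex, 6.43, 8.22 and 10.3 RPKM in the striatum and 6.74, 10.8 and 13.6 RPKM in the hippocampus. The ranges overlapped, and the striatum was lower than the prefrontal cortex in 19 of 20 mice, by a log2 fold change of -0.47 (SE 0.074, edgeR, adjusted p 1.02e-07). Mrps26, a protein found in mitochondrial and not in bacterial ribosomes, had 2.66, 3.48 and 4.62 RPKM in the prefrontal cortex, 1.41, 2.61 and 3.26 RPKM in the striatum and 2.19, 3.39 and 4.39 RPKM in the hippocampus. It was lower in the striatum in 19 of 20 mice against the prefrontal cortex (-0.43, SE 0.063, edgeR, adjusted p 1.69e-08) and in 18 against the hippocampus (-0.31, adjusted p 1.70e-05). Mrpl14, which binds the assembly factor MALSU1, and Mrpl28 were more variable: Mrpl14 had 2.88 to 8.66 RPKM in the striatum and 1.82 to 8.65 RPKM in the hippocampus. Against the prefrontal cortex the striatum was at -0.41 for Mrpl14 (SE 0.112, edgeR, adjusted p 0.00103, 17 of 20 mice) and at -0.40 for Mrpl28 (SE 0.095, adjusted p 0.000205, 16 of 20 mice).

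The 9 members highest in the striatum included Mrpl47, Mrpl24 and Mrpl23 of the large subunit. Mrpl47 had 3.03, 3.71 and 4.55 RPKM in the prefrontal cortex, 3.87, 4.72 and 5.75 RPKM in the striatum and 3.25, 4.26 and 5.43 RPKM in the hippocampus. The striatum was higher than the prefrontal cortex in 19 of 20 mice (log2 fold change 0.38, SE 0.063, edgeR, adjusted p 2.34e-07) and than the hippocampus in 18 (0.25, adjusted p 0.000470). Mrpl24 was higher in the striatum by 0.33 against the prefrontal cortex (adjusted p 1.30e-06) and by 0.25 against the hippocampus (adjusted p 9.52e-05), in 17 and 18 of 20 mice. Exons of other genes on the opposite strand overlap 24.2% of the exon bases of Mrpl47 (Actl6a and Ndufb5) and 26.3% of those of Mrpl24 (Rrnad1), and reads of these pairs cannot be told apart for the same reason. Mrpl23 had a log2 fold change of 0.68 between striatum and prefrontal cortex (SE 0.199, edgeR, adjusted p 0.00206, 17 of 20 mice). It failed the count filter of the cortical fit and entered the fit of 60 libraries with a mean of 7.95 cortical, 12.6 striatal and 8.70 hippocampal counts, so that its call supports nothing further here. Its levels were 0.0764, 0.144 and 0.212 RPKM in the prefrontal cortex, 0.150, 0.224 and 0.399 RPKM in the striatum and 0, 0.173 and 0.376 RPKM in the hippocampus.

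Mrps21 (ENSMUSG00000054312, 3:95862634-95871519), whose promoter carries the NRF1 letters above, had 8.77, 13.0 and 15.8 RPKM in the prefrontal cortex, 10.8, 17.3 and 21.5 RPKM in the striatum and 8.35, 12.8 and 20.3 RPKM in the hippocampus. The striatum was higher than the prefrontal cortex in 17 of 20 mice and higher than the hippocampus in 19, with overlapping ranges. The log2 fold changes were 0.47 (SE 0.085, edgeR, adjusted p 2.02e-06) and 0.46 (SE 0.085, adjusted p 2.71e-06). Mrpl16 (ENSMUSG00000024683, 19:11770391-11774960), which lies close to the peptidyl transferase centre, was ordered striatum, prefrontal cortex, hippocampus, each step past the threshold. It had 10.3, 16.5 and 19.3 RPKM in the striatum, 11.9, 14.5 and 18.5 RPKM in the prefrontal cortex and 9.46, 12.5 and 14.4 RPKM in the hippocampus. The striatum exceeded the hippocampus by 0.49 (SE 0.054, edgeR, adjusted p 5.21e-12, 19 of 20 mice), and the hippocampus was below the prefrontal cortex at -0.31 (SE 0.054, adjusted p 1.16e-06, 17 of 20 mice). Mrpl19 was higher in the striatum than in the hippocampus by 0.25 (edgeR, adjusted p 4.84e-06, 17 of 20 mice), with 36.0% of its exon bases overlapped on the opposite strand by Gcfc2.

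The members highest in the hippocampus were led by Mrps22 (ENSMUSG00000032459, 9:98588730-98601660), a protein specific to the mitochondrial ribosome. It had 6.15, 7.10 and 9.35 RPKM in the hippocampus, 4.32, 5.49 and 6.21 RPKM in the prefrontal cortex and 4.18, 5.17 and 6.12 RPKM in the striatum. On RPKM no striatal library reached the lowest hippocampal library, but on CPM with TMM factors the ranges overlapped (16.5 to 26.3 against 22.8 to 38.5 CPM). Within a mouse the hippocampus was higher than the prefrontal cortex in 19 of 20 and higher than the striatum in 18. The log2 fold change was 0.36 for hippocampus against prefrontal cortex (SE 0.058, edgeR, adjusted p 2.50e-07) and -0.40 for striatum against hippocampus (SE 0.058, adjusted p 1.70e-08). Mrpl1, the protein of the mobile L1 stalk, had 6.56, 8.29 and 11.8 RPKM in the hippocampus, 5.75, 6.55 and 8.09 RPKM in the prefrontal cortex and 5.73, 6.82 and 8.72 RPKM in the striatum. The hippocampus was higher than the prefrontal cortex in 19 of 20 mice, by 0.32 (SE 0.061, edgeR, adjusted p 7.71e-06).

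The members lowest in the prefrontal cortex included Mrpl17, Mrps9 and Mrpl52. Mrps9, a small subunit protein with a bacterial counterpart, had 3.72, 4.54 and 5.76 RPKM in the prefrontal cortex, 4.62, 5.73 and 6.44 RPKM in the striatum and 4.78, 5.61 and 6.68 RPKM in the hippocampus. It was higher in the hippocampus in 18 of 20 mice (0.24, SE 0.043, edgeR, adjusted p 2.15e-06) and in the striatum in 19 (0.33, adjusted p 8.83e-10). Mrpl17 differed from the prefrontal cortex by 0.36 in the striatum (SE 0.048, edgeR, adjusted p 1.44e-09) and 0.29 in the hippocampus (adjusted p 3.70e-07), each in 17 of 20 mice. Mrpl52 differed by 0.36 (adjusted p 0.000547, 17 of 20 mice) and 0.31 (adjusted p 0.00347, 14 of 20 mice). Counted only as highest in the prefrontal cortex were Mrps27 and Mrpl12. Exons on the opposite strand overlap 24.2% of the exon bases of Mrps27 (6430562O15Rik) and 13.1% of those of Mrpl12 (Gm16755). Mrps27 is a pentatricopeptide repeat protein, and Mrpl12 a stalk protein that also binds the mitochondrial RNA polymerase. Mrps27 had 5.66, 8.48 and 10.6 RPKM in the prefrontal cortex, 3.40, 6.69 and 8.75 RPKM in the striatum and 2.75, 7.69 and 9.88 RPKM in the hippocampus.

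Some calls of a lower level in the hippocampus than in the prefrontal cortex depended on the processing. Mrps27 was at -0.25 (edgeR, adjusted p 0.00482, 16 of 20 mice) and lost its call with RIN as a covariate (-0.18, adjusted p 0.0583). Mrpl54 (-0.23, adjusted p 0.0319, 13 of 20 mice), Mrpl12 (-0.20, adjusted p 0.0305, 15 of 20 mice) and Mrpl46 (-0.19, adjusted p 0.0339, 13 of 20 mice) lost theirs with library totals, with limma and with RIN as a covariate, at adjusted p between 0.122 and 0.310. Mrpl54 also lost it without mouse 226, 259, 268, 325, 339 or 390 (adjusted p 0.0501 to 0.0924), Mrpl12 without mouse 225, 226, 259, 273, 286 or 452 (0.0520 to 0.0651), and Mrpl46 without mouse 225, 226, 244, 259, 268 or 286 (0.0546 to 0.0870). The log2 fold changes in these fits without 1 mouse were -0.22 to -0.19 for Mrpl54, -0.19 to -0.18 for Mrpl12 and -0.19 to -0.16 for Mrpl46, close to the values with all mice.

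**Figure D2:**
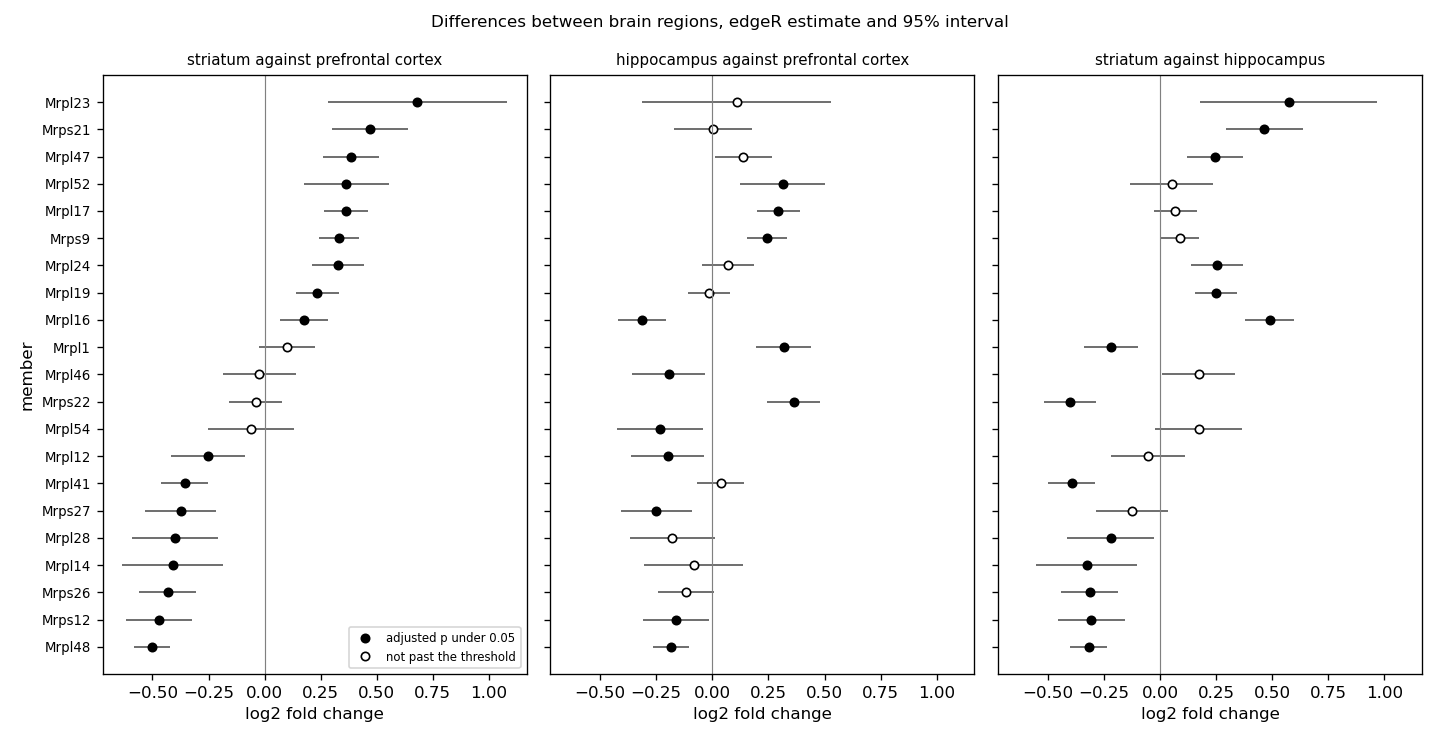
Log2 fold change of the members named by the rule for regions, in the 3 comparisons of regions (edgeR estimate with 95% interval, 60 libraries). Filled points passed an adjusted p of 0.05; most points lie between -0.50 and 0.50, and Mrpl23 at 0.68 has the widest interval.

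**Figure D3:**
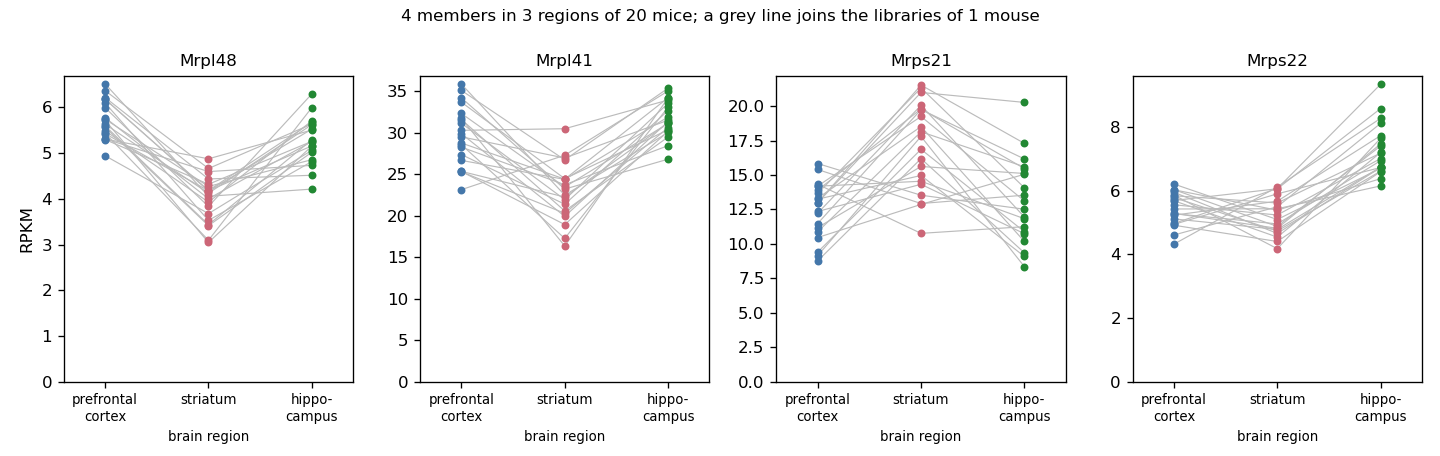
RPKM of Mrpl48, Mrpl41, Mrps21 and Mrps22 in each of 60 libraries, with a grey line joining the 3 regions of a mouse. The lines of Mrpl48 fall from the prefrontal cortex to the striatum in 20 of 20 mice, and Mrps22 is at 6.15 RPKM or more in every hippocampal library.

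The paralogs Mrps18a, Mrps18b and Mrps18c, of which the first sits in the large subunit despite its name, had mean levels of 4.38, 3.24 and 15.1 RPKM. Mrps18a was lower in the striatum than in the prefrontal cortex, at -0.14 (edgeR, adjusted p 0.0383, 15 of 20 mice). Mrps18c was higher in the striatum, by 0.22 against the prefrontal cortex (adjusted p 0.0183, 11 of 20 mice) and by 0.20 against the hippocampus (adjusted p 0.0308, 14 of 20 mice). Mrps18b passed in no comparison of regions, and 30.5% of its exon bases are overlapped on the opposite strand by Gm16279. For Mrps18c, 23.2% of the exon bases are overlapped on the same strand by Gm43511.

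Other genes of mitochondrial translation were read beside the members. Of the 5 ribosomal proteins not named Mrp, Chchd1 was higher (0.13, edgeR, adjusted p 0.0167) and Aurkaip1 lower (-0.12, adjusted p 0.0486) in the striatum than in the prefrontal cortex. Dap3, a GTP-binding protein of the small subunit, was higher in the hippocampus than in the prefrontal cortex (0.13, adjusted p 0.00281). Their counts are to be read against the shares of all genes given above (for striatum against prefrontal cortex, 69.9% in either direction). Of the 15 translation factors tested, 5 were higher and 2 lower in the striatum than in the prefrontal cortex (46.7%), among them the initiation factor Mtif2 (0.18, adjusted p 0.00572), and 3 were higher and 0 lower in the hippocampus than in the prefrontal cortex, among them Slirp, which stabilises mitochondrial messenger RNA (0.27, adjusted p 0.000465). Of the 26 assembly and RNA modification genes tested, 4 were higher and 7 lower in the striatum than in the prefrontal cortex (42.3%), with a median log2 fold change of 0.00037. The lowest fold changes among them were those of Mrm1 and Rpusd3. The methyltransferase gene Mrm1 was lower, at -0.98 (SE 0.103, edgeR, adjusted p 1.19e-12) and Rpusd3, a pseudouridine synthase, at -0.69 (adjusted p 0.00134), the latter at mean levels of 0.406 to 0.977 RPKM in the 3 regions. A further list of 20 genes held the mitochondrial aminoacyl-tRNA synthetases, which load transfer RNAs. It also held Qrsl1, Gatb and Gatc, which encode subunits of an amidotransferase and not synthetases. Of these 20 genes, 8 were higher and 6 lower in the striatum than in the prefrontal cortex (70%, about the share of all genes). The synthetase genes Nars2 and Aars2 were at 0.62 (edgeR, adjusted p 6.77e-14) and -0.57 (adjusted p 1.54e-06). Of 80 cytosolic ribosomal proteins tested, 38 were higher and 2 lower in the striatum than in the prefrontal cortex (50%; all genes 35.9% higher and 34.0% lower), with a median log2 fold change of 0.13.

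No member differed with genotype or diet past the threshold. Each region was fitted on its own 20 libraries for 8 comparisons: KO against WT on each diet and on average, diet (lacking against normal) within each genotype and on average, both changes together (KO with lacking pellets against WT with normal pellets), and the interaction. The count of members called by edgeR was 0 in all 24 comparisons. For KO against WT on average, the shares of all genes that passed were 0.673% (prefrontal cortex), 0.203% (striatum) and 0.164% (hippocampus). On the normal diet the shares of all genes were 0.121%, 0.0601% and 0.0299%, on the lacking diet 0.234%, 0.128% and 0.0672%, and for both changes together 0.28%, 0.0826% and 0.0149%. For diet and for the interaction they were 0.0% in each region. At an unadjusted p under 0.05, edgeR counted 1 to 7 members per comparison in the prefrontal cortex, 0 to 6 in the striatum and 0 to 6 in the hippocampus, while the share of all genes ran from 2.27 to 14.1%, from 1.68 to 5.78% and from 2.15 to 9.45%. DESeq2 and limma also called 0 members in each of the 24 comparisons, with 1 to 8 and 1 to 11 members at an unadjusted p under 0.05, and the smallest adjusted p of any member was 0.0521 with DESeq2. The shares of all genes given here are those of edgeR, so the unadjusted counts of DESeq2 and limma are not read as a result. For KO against WT on average the unadjusted count was 7 of 75 members in the prefrontal cortex (9.33%; all genes 14.1%), 6 of 76 in the striatum (7.89%; all genes 5.78%) and 6 of 76 in the hippocampus (7.89%; all genes 4.24%). For diet on average it was 3 of 75 (all genes 3.28%), 5 of 76 (6.58%; all genes 3.06%) and 0 of 76 (all genes 2.15%).

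The intervals show what size of change remained possible. For KO against WT on average, the 95% interval of the fold change lay wholly within 1.5-fold for 73 of 75 members in the prefrontal cortex, 73 of 76 in the striatum and 71 of 76 in the hippocampus, and within 1.2-fold for 38, 34 and 37. For the lacking against the normal diet on average, 74, 73 and 72 members lay within 1.5-fold, and 42, 36 and 38 within 1.2-fold. The median half-width of these intervals was between 0.18 and 0.19 on the log2 scale. Over the members, the median log2 difference of KO and WT was -0.02 (prefrontal cortex), -0.01 (striatum) and 0.05 (hippocampus), where 56 of 76 members were above 0. For diet it was -0.05, -0.02 and -0.01, with 19 of 75 members above 0 in the prefrontal cortex. The medians of all genes for genotype and diet lay between -0.0022 and 0.00081 in the 3 regions.

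**Figure D4:**
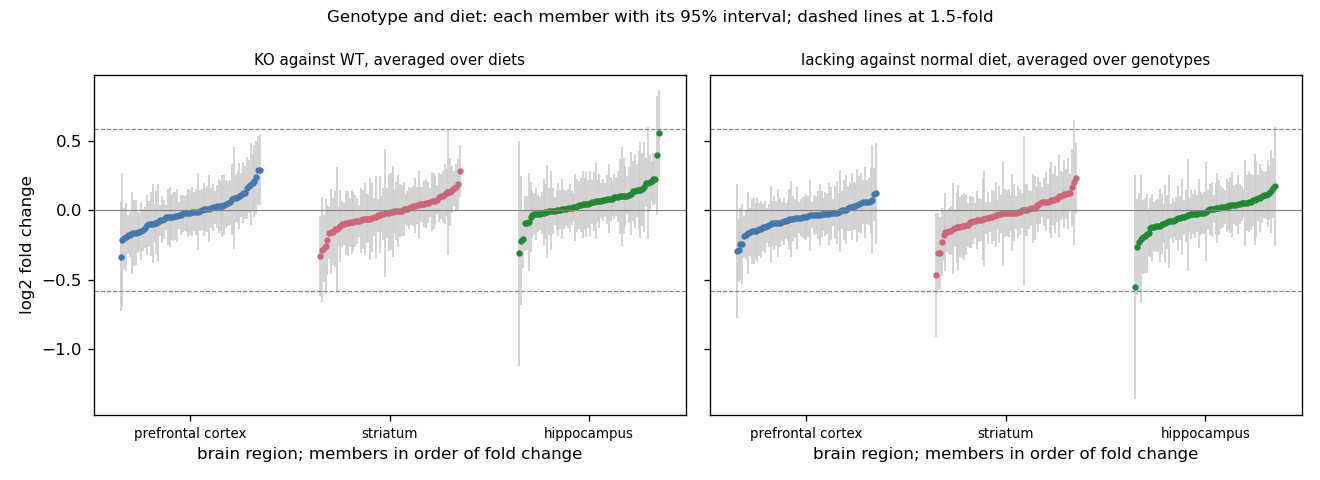
Log2 fold change with 95% interval (grey) of each tested member for KO against WT and for the lacking against the normal diet, averaged over the other factor, in the 3 regions; members are in order of fold change and dashed lines mark 1.5-fold. Most intervals cross 0, and none of the 75 or 76 members passed an adjusted p of 0.05.

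The member with the smallest p for genotype was Mrpl52 (ENSMUSG00000010406, 14:54426909-54429756) in the hippocampus. It had 2.83, 2.88, 3.40, 3.87 and 4.69 RPKM in WT mice on the normal diet and 2.11, 3.39, 4.32, 4.72 and 5.42 RPKM in WT mice on the lacking diet. In KO mice it had 4.94, 5.66, 5.67, 6.05 and 6.10 RPKM on the normal diet and 4.13, 4.19, 5.44, 5.60 and 7.42 RPKM on the lacking diet. On the normal diet every KO library lay above every WT library, and on the lacking diet the groups overlapped. The log2 fold change averaged over diets was 0.55 (SE 0.147, 95% interval 0.24 to 0.87, unadjusted p 0.000914), and the edgeR adjusted p was 0.250. In the other regions WT and KO ranges overlapped, 2.65 to 4.07 and 2.19 to 4.60 RPKM in the prefrontal cortex and 2.69 to 5.90 and 3.07 to 5.71 RPKM in the striatum. The difference of the KO effect between hippocampus and prefrontal cortex was 0.64, at an edgeR adjusted p of 0.761. In the hippocampus the summed RPKM of the choroid plexus markers was 12.4 to 1010 in WT and 5.37 to 1229 in KO libraries, and that of the oligodendrocyte markers 707 to 991 and 573 to 987; their part in this value was not tested.

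The smallest p in the striatum belonged to Mrps10 (ENSMUSG00000034729, 17:47368887-47381417). Its levels were 2.17, 2.24, 2.31, 2.37 and 3.09 RPKM in WT mice on the normal diet, 1.99, 2.13, 2.30, 2.39 and 2.40 RPKM in WT mice on the lacking diet, 2.31, 2.56, 2.66, 2.72 and 3.67 RPKM in KO mice on the normal diet and 2.59, 2.60, 2.65, 2.85 and 3.09 RPKM in KO mice on the lacking diet. The genotypes overlapped on the normal diet and did not on the lacking diet. The log2 fold change averaged over diets was 0.28 in the striatum (SE 0.089, edgeR, adjusted p 0.642), 0.17 in the prefrontal cortex (adjusted p 0.387) and 0.23 in the hippocampus (adjusted p 0.976). In the prefrontal cortex the smallest p for genotype belonged to Mrpl39, with 11.2, 11.3, 11.4, 12.6 and 12.8 RPKM in WT and 9.64, 10.4, 10.4, 10.5 and 10.6 RPKM in KO mice on the normal diet. These groups did not overlap, whereas on the lacking diet WT mice had 9.59 to 12.2 RPKM and KO mice 8.60 to 11.5 RPKM. Averaged over diets, the log2 fold change was -0.17 (SE 0.066, edgeR, adjusted p 0.226).

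For diet, the smallest p in the prefrontal cortex belonged to Mrpl34. It had 12.2, 12.9, 15.1, 15.5 and 15.5 RPKM in WT mice on the normal diet against 9.61, 10.4, 10.8, 10.9 and 12.2 RPKM on the lacking diet, and 10.6 to 15.3 against 8.32 to 14.6 RPKM in KO mice. The WT ranges met at their ends and the KO ranges overlapped. The log2 fold change over genotypes was -0.29 (SE 0.107, edgeR, adjusted p 1.00). Mrps24 in the striatum was at -0.30 (SE 0.123, unadjusted p 0.0205) and Mrpl49 in the hippocampus at -0.16 (SE 0.079, unadjusted p 0.0519), neither past the adjusted threshold of edgeR. The smallest adjusted p of a member in any of the 24 comparisons was that of Mrpl42, the most abundant member, for both changes together in the prefrontal cortex defined above. It had 43.3, 45.1, 46.7, 57.1 and 57.6 RPKM in the KO group and 53.4, 58.9, 62.5, 67.3 and 69.4 RPKM in the WT group, overlapping ranges with a log2 fold change of -0.35 (SE 0.099, edgeR, adjusted p 0.117).

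Whether an effect differed between regions was tested in the fit of 60 libraries. For the KO effect and the diet effect over the 3 pairs of regions, 0 members passed in any of the 6 comparisons with edgeR, DESeq2 or limma, with 1 to 8 members at an unadjusted p under 0.05 by edgeR (all genes 1.47 to 9.18%). Of all genes, 0.00718% passed for the KO effect between hippocampus and prefrontal cortex and 0.0% in the other 5 comparisons.

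In all, 8 members share chromosome 17 with the deleted gene (Glo1 at 17:30584936-30626871). They are Mrpl28 at 4.46 Mb from it, Mrps18b at 5.33 Mb, Mrps34 at 5.69 Mb, Mrpl14 at 15.1 Mb, Mrps18a at 15.5 Mb, Mrpl2 at 16.1 Mb, Mrps10 at 16.8 Mb and Mrpl18 at 17.7 Mb. None passed in a comparison of genotypes. For the nearest, Mrpl28, WT and KO libraries had 3.88 to 8.82 and 5.45 to 9.16 RPKM in the prefrontal cortex, 3.64 to 6.55 and 3.06 to 7.27 RPKM in the striatum and 4.47 to 8.47 and 4.96 to 8.69 RPKM in the hippocampus, all overlapping, with log2 fold changes of 0.08, -0.06 and -0.0035. Mrps18b was at 0.29 in the prefrontal cortex (95% interval 0.04 to 0.55, edgeR, adjusted p 0.272), -0.05 in the striatum and 0.07 in the hippocampus. Mrps34 was at 0.03, -0.27 (adjusted p 0.740) and -0.05, and 77.8% of its exon bases are overlapped by Mapk8ip3 or Nme3. Mrps10, 16.8 Mb away, was above 0 in all 3 regions, as given above.

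The score of a library, the mean log2 CPM of the 75 members tested in all 3 regions, lay between 3.91 and 4.12 over the 60 libraries. Its SD within groups was 0.0549, which is the spread of single libraries and not that of a difference between means. The mean ± SD over 20 libraries of a region was 4.02 ± 0.0555 for prefrontal cortex, 3.98 ± 0.0532 for striatum and 4.03 ± 0.0646 for hippocampus. The differences between regions, -0.03 for striatum and 0.01 for hippocampus against prefrontal cortex, were smaller than the SD within groups, and they depended on how the score was made. With the median of the members in place of the mean, the striatum was 0.06 above the prefrontal cortex, so that the sign turned. With library totals the hippocampus was 0.07 above the prefrontal cortex, and the striatum was at -0.12 against the hippocampus (-0.04 with TMM factors).

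Within regions, KO minus WT was -0.0035 for prefrontal cortex and -0.02 for striatum, and the lacking minus the normal diet was -0.06, -0.02 and -0.01 in prefrontal cortex, striatum and hippocampus. With the median of the members, KO minus WT turned to 0.02 for prefrontal cortex and 0.03 for striatum. Of all these, the diet difference in the prefrontal cortex was about as large as the SD within groups. The largest of these differences was KO minus WT in the hippocampus, 0.07, which was above the SD within groups (0.09 with the median). There the score was 3.99 ± 0.0677 in WT and 4.07 ± 0.0362 in KO mice on the normal diet, and 3.99 ± 0.0704 and 4.05 ± 0.0494 on the lacking diet (mean ± SD, n = 5). The ranges overlapped, 3.93 to 4.10 against 4.02 to 4.12 on the normal diet. The same kind of score for the cytosolic ribosomal proteins was also higher in KO mice in the hippocampus. It was 5.32 ± 0.110 in WT and 5.39 ± 0.0695 in KO mice on the normal diet, and 5.34 ± 0.114 and 5.36 ± 0.0477 on the lacking diet. No p-value is given for the score, since the members were chosen with results of these data known.

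**Figure D5:**
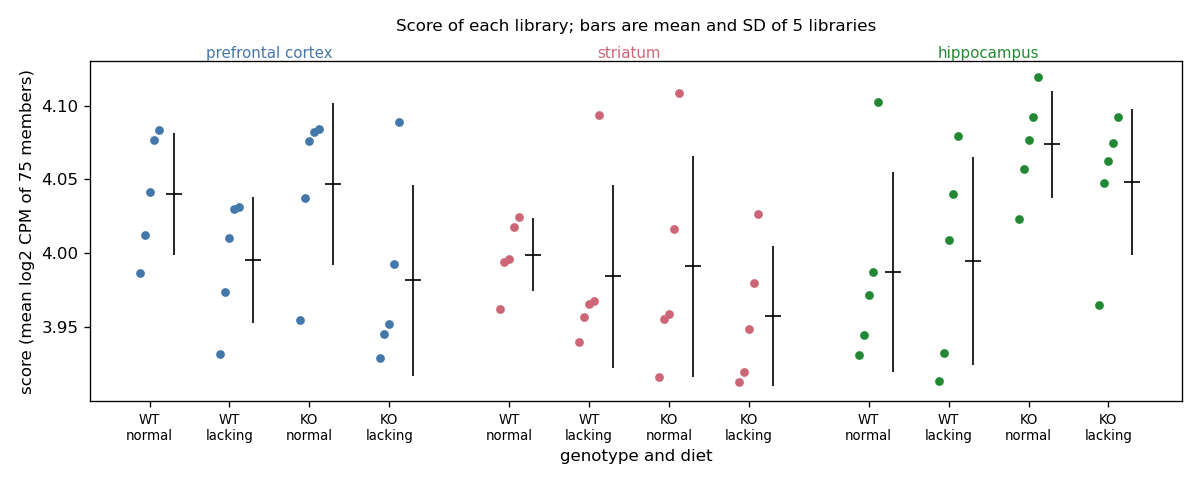
Score (mean log2 CPM of 75 members) of each of 60 libraries by genotype and diet in the 3 regions, with bars of the mean and SD of 5 libraries; the axis does not start at 0. All libraries lie between 3.91 and 4.12 and the 4 groups of each region overlap.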

How the data were processed

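The authors deposited raw read counts per gene, as whole numbers, and RPKM values for the same genes in 60 libraries; the RPKM equal the deposited counts scaled to a fixed gene length and to the column total. Per the submitters' processing notes, the build mm10 and the tools STAR 2.7.1a and HTSeq 0.9.1 were used; their roles, the annotation and the strand setting are not given in the sources used here. Per the labels' protocols, each library started from 2 µg of total RNA with poly(A) selection, and reads were single and 75 bases long. Columns were matched to samples by name.

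Counts were analysed with edgeR 4.0.16 in R 4.3.3 (TMM factors, filterByExpr at a count of 10 and a total of 15, two-sided quasi-likelihood F-tests, 1 mean per group). Benjamini-Hochberg adjustment ran over all genes of a comparison, with a threshold of 0.05. Each region was fitted on its 20 libraries, and regions were compared in a fit of all 60. Standard errors come from the F statistics. The score used log2 CPM with a prior count of 2. DESeq2 1.42.0, limma 3.58.1 on log2(RPKM + 1) and log2(RPKM + 0.1), other scalings and filters, a RIN covariate, the mouse as block, fits restricted to the groups compared and leaving out each mouse were alternatives.

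Each library is 1 mouse, and the same mouse number marks the 3 regions of 1 animal per the labels, so the samples are paired across regions. Residuals of same-mouse libraries correlated at a mean of 0.0468 over 60 pairs, and those of different mice of a condition at -0.0111 over 240 pairs. Replicates of a group differed by more than counting error in all 120 pairs (chi-square per gene at least 1.94). The floor of 3 counts was 0.215 to 0.393 CPM, which covers counting error only.

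The steps were tested on simulated data. For KO against WT averaged over diets in the hippocampus (13393 genes), edgeR recovered 31.8% of genes changed by 0.3 on the log2 scale, 73.1% of those changed by 0.5 and 93.8% of those changed by 1, and 2 of 133 calls were false. For the striatum against the prefrontal cortex (13930 genes) the shares were 62.7%, 85.7% and 95.5%, and 7 of 166 calls were false. In the order of these sizes, 66, 67 and 65 genes were changed in the first simulation and 67, 63 and 66 in the second. All other genes were unchanged. In the real data edgeR called 22 and 9743 genes in these comparisons, so that the shares recovered need not carry over to them.

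The members and gene lists were chosen with earlier results of these data known. Named are members called for genotype, diet or interaction (there were 0), the 5 highest and 5 lowest fold changes among the members called in each comparison of regions, the 4 highest and 4 lowest levels, the members on the chromosome of Glo1, the smallest p for genotype and for diet in each region, the Mrps18 paralogs and members that failed a count filter, and Glo1; others named were chosen after their values were seen. Gene positions and exon overlaps are from GENCODE M21 (GRCm38, the assembly of mm10), and promoters from RefSeq (GRCm38.p6).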

Additional observations from a re-analysis of the deposited data

Results flagged for a closer look

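Among 36 groups of 5 libraries examined for a library far from the others (the score in each group, and the 6 members with the smallest p for genotype or diet in their region; chance, at 1 in 20, gives 1.8), 3 had one whose gap to its neighbour exceeded 0.71 of the group's range. Among striatal libraries of WT mice fed the lacking diet, the score of mouse 241 was 4.09 and that of the other 4 mice 3.94 to 3.97; its RIN was 8.2 and its total 12536866 counts. In the prefrontal cortex of KO mice on the normal diet, Mrpl39 was at 9.64 RPKM in mouse 368 and at 10.4 to 10.6 RPKM in the others. Among striatal libraries of WT mice fed the normal diet, Mrps10 was at 3.09 RPKM in mouse 273 and at 2.17 to 2.37 RPKM in the others.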

How the results depend on the processing

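The 0 calls for genotype, diet, interaction and differences of effect held under every alternative run and without each mouse in turn. Between regions, the counts that moved by over 1.5 times were these. For hippocampus against prefrontal cortex, members called higher went from 14 to 23 with library totals and with limma on log2(RPKM + 1), and members called lower from 11 to 4 with library totals and both limma fits, to 6 with RIN as a covariate and to 7 without mouse 226. For striatum against hippocampus, library totals gave 7 higher (11 with TMM factors) and 38 lower (22 with TMM factors), and limma 37 and 36 lower. Keeping only the 53 members with little exon overlap or shared sequence, a choice made after seeing the data, gave 9 higher and 11 lower for striatum against prefrontal cortex, 6 lower for hippocampus against prefrontal cortex and 6 higher for striatum against hippocampus; fewer members enter by construction. The cause of the other moves was not tested. No shares of all genes are given for the alternatives or without each mouse, so these counts only describe the calls.

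Without each mouse in turn, striatum against prefrontal cortex gave 13 to 16 higher and 15 to 21 lower, hippocampus against prefrontal cortex 12 to 16 higher and 7 to 15 lower, and striatum against hippocampus 10 to 12 higher and 18 to 24 lower. With the mouse as replicate block the counts were 15 and 18, 15 and 13, and 11 and 22, and the pairing changed no count by over 1.5 times; differences of effect were at 0. No fold change of a named member between regions changed sign under an alternative. The score of the members did change sign with the median in place of the mean, from -0.03 to 0.06 for striatum against prefrontal cortex. Depth limits Mrpl23 and Mrpl53, and genes changed by 0.3 on the log2 scale were missed more often than found in the simulated comparison of genotypes.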

Other observations

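After group means were removed, the correlation across the 60 libraries had a median of 0.057 over pairs of the 76 members (0.072 within the large and 0.026 within the small subunit), against 0.187 over pairs of 80 cytosolic ribosomal proteins and 0.0 over pairs of all genes. Single pairs lay far from that median in both directions. The 4 pairs with the largest absolute correlation were named after their values were seen. They were Mrpl37 with Mrps22 at -0.82, Mrpl50 with Mrpl19 at 0.74, Mrpl37 with Mrpl1 at -0.74 and Mrpl37 with Mrpl42 at 0.73. These pairs share libraries, depth and RIN, and are a description.

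The slope of each member on RIN within groups, computed after the first results were seen, had a median of -0.04 log2 units per RIN unit over 76 members and 0.0040 over all genes. Across the 76 members the slope correlated with the GC content of the exons at a Pearson r of -0.54 (Spearman -0.52), and across 13577 genes at -0.52 (Spearman -0.60). The GC content of the members ran from 41.4 to 60.6%, with a median of 50.5%. These are correlations across genes, which share libraries and are not replicates.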
